A study of Mus musculus with 15 samples.

Results

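The 10 genes Clk1, Clk2, Clk3, Clk4, Srsf2, Srsf3, Srsf5, Srsf7, Tra2a and Tra2b were followed in hippocampal RNA of mice trained in contextual fear conditioning. They were chosen by name, as CLK kinases and the splicing factors that carry arginine/serine-rich (RS) domains. Earlier results of these data were known when they were chosen. Shares of the 10 called, set beside those of all genes, are therefore a description only. All 10 of them were among the 37310 genes counted, and all 10 passed the filter on low counts, with 1317 raw reads in the lowest library of the least counted member. Wild-type C57BL/6J males of 2 months of age were used throughout, with no transgene and no drug. FC mice received 1 foot shock (1.5 mA, 2 s) and gave tissue 30 min after conditioning. RT mice had the same conditioning, went through a 5-min retrieval test 24 h later and gave tissue 30 min after the test. CC mice had the handling but neither chamber nor shock, and were dissected at the hour used for the other groups. Each group had 5 libraries, numbered 3, 5, 6, 7 and 8, made from polyA RNA with a kit that does not mark strand. The sources differ on how many animals were used, so n counts libraries.

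CLK kinases are nuclear dual-specificity kinases that phosphorylate the RS domains of SR proteins and so release them from nuclear speckles toward sites of transcription. SR and Tra2 proteins bind exonic enhancers in pre-mRNA and recruit the spliceosome to weak exons. Many of these genes limit their own output: exons or introns that carry early stop codons are included when the protein is plentiful, and the transcript is then kept in the nucleus or degraded by nonsense-mediated decay. Introns retained in Clk1 and Clk4 transcripts are known to be spliced out when cells are stressed or the kinases are inhibited.

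CC libraries held 39992029 to 62555543 reads, FC libraries 42051401 to 59093377 and RT libraries 35731428 to 61275293. As a check of the labels, Fos, an immediate early gene, spanned 219 to 357 counts across CC libraries, 1148 to 1698 across FC and 977 to 1257 across RT after upper-quartile (UQ) normalization. FC3 and RT3 stood apart from the rest: the interquartile range of relative log expression over the tested genes was 0.828 and 0.436 there, and at most 0.117 in the other 13 libraries. In both, the summed counts of oligodendrocyte markers (436974 and 392151, against 255137 to 306309 in the other 13), microglial, endothelial and blood markers were above those of all other libraries, and the sum of neuronal markers was below (333518 and 396337, against 442409 to 513393). The part of these cell types in the results was not tested. Calls are given with and without both libraries. Of 8 marker lists for cell types of the hippocampus and its surroundings, only choroid plexus had members called higher in FC or in RT than in CC. Its level also differed widely among libraries of the same group, and the source of this spread was not tested. The summed count of its 10 markers lay between 1914 and 2626 in CC, between 3952 and 53305 in FC with FC5 highest, and between 2542 and 14964 in RT with RT8 highest. None of the 10 was at 0 in any library, and 9 of 10 were higher in FC than in CC in edgeR, with a median log2 fold change of 1.90. In bulk tissue, fewer cells of a type and less RNA per cell cannot be told apart.

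On mm9, the kinase genes lie at chr1:58467033-58480910 on the minus strand (Clk1), chr3:88968717-88980843 on the plus strand (Clk2), chr9:57598518-57613667 on the minus strand (Clk3) and chr11:51075232-51095268 on the plus strand (Clk4). The SR protein genes lie at chr11:116711220-116714410 on the minus strand (Srsf2), chr17:29169618-29180311 on the plus strand (Srsf3), chr12:82046491-82051494 on the plus strand (Srsf5) and chr17:80599429-80606629 on the minus strand (Srsf7). Tra2a lies at chr6:49193920-49214051 and Tra2b at chr16:22244622-22266078, both on the minus strand. The annotation gives a transcript marked for nonsense-mediated decay to 7 of the 10 genes (70%), against 15.0% of the 15545 tested protein-coding genes. Transcripts with a retained intron are likewise annotated for 7 of 10 (70%), against 31.1%. Clk1 has 13 annotated transcripts, of which 2 are coding, 2 are marked for decay and 5 retain an intron. Clk4 has 14, of which 4 are coding, 3 are marked for decay and 7 retain an intron. By contrast, the annotation holds a single transcript of Clk3. The deposited counts are sums over all exons of a gene, so productive and unproductive transcripts cannot be told apart in them.

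Clk1 and Clk4 share an alternative exon of 91 bases that decay transcripts of either gene skip; it is shown because the results turn on this pair of genes and because its skipping is known in Clk1 to give a truncated protein without the kinase domain. A length of 91 is not a multiple of 3, so skipping it changes the reading frame. The exon of Clk1 is at chr1:58476965-58477055 on the minus strand and that of Clk4 at chr11:51086580-51086670 on the plus strand (mm9), and 85 of the 91 bases (93.4%) are identical. Capitals mark the 6 bases that differ.
Clk1 exon: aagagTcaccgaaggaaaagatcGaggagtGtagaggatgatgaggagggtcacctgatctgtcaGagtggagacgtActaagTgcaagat
Clk4 exon: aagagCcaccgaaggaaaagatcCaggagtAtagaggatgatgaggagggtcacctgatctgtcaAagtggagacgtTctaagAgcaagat
In spite of this likeness, the longest coding transcripts of Clk1 and Clk4 shared no stretch of read length with protein-coding transcripts of other genes. The same held for every other member except Srsf3. Noncoding transcripts, pseudogenes and the rest of the genome were not searched. For Srsf3, 13.2% of the stretches also occurred in Gm12355, and read pairs wholly within them would not have mapped uniquely. The exons of Clk3 overlap those of Edc3 on the other strand over 582 bases (23.3% of its exonic length), and those of Srsf2 overlap Mfsd11 over 293 bases (9.9%). Without strand, reads in these overlaps cannot be given to either gene, and the values of Clk3 and Srsf2 are uncertain to that extent.

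RefSeq promoter windows (GRCm38.p6) of 300 bases, most of which precede the start site, were matched for 9 of the 10 genes, all but Clk1. The cAMP response element TGACGTCA, bound by CREB after neuronal activity, occurred in 2 of them, Clk4 and Tra2a. It occurs in 588 of 32851 promoters in the RefSeq table (1.79%). In Clk4 the match ran from base -65 to base -58 counted from the start site, and in Tra2a from -27 to -20. The upstream bases of both genes are shown, with the element in capitals. They lie at chr11:51262864-51263113 on the plus strand for Clk4 and at chr6:49264053-49264302 on the minus strand for Tra2a. As given below, Clk4 was called in FC and in RT and Tra2a in neither, and the 2 genes were not tested against each other.
Clk4 promoter: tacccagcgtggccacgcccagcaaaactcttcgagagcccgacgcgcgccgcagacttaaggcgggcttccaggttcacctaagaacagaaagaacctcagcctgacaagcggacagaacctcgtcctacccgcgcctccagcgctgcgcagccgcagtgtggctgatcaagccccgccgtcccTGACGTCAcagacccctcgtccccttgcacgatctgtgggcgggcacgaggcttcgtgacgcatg
Tra2a promoter: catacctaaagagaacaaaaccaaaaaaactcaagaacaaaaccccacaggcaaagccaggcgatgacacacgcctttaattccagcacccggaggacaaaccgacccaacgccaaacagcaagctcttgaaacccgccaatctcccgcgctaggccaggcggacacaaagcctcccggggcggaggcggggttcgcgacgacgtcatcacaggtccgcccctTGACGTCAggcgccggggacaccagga
Searched on both strands, the AP-1 site TGANTCA was in none of the 9 windows (7.81% of all), and the E-box CACGTG was in that of Clk2 alone (7.15%). No match overlapped another. The motifs were chosen after the windows had been seen, and a match describes letters, not a bound site.

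All 10 genes were well expressed. Per kilobase of exonic length, the mean UQ-normalised count over the 15 libraries was 3140 for Srsf5, 2193 for Srsf2, 1881 for Srsf7, 1263 for Tra2a, 1076 for Srsf3, 791 for Clk3, 762 for Clk1, 608 for Clk4, 436 for Clk2 and 420 for Tra2b. Ranges of neighbours in this order overlapped, except between Srsf7 and Tra2a, between Srsf3 and Clk3 and between Clk4 and Clk2. Each of the 4 SR protein genes stood above each kinase gene on this scale. Exonic length counts retained introns as exons, which lowers the level per kilobase of genes such as Clk1, whose exonic length was 8139 bases against 2494 for Clk3. The order depends on this choice. The longest coding transcript has 2105 bases for Clk1, 2566 for Srsf3 and 2263 for Srsf7. Mean counts in CC were 5666 for Clk1, 5262 for Srsf3 and 4497 for Srsf7. Per base of that transcript, Clk1 would thus stand above both SR protein genes.

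**Figure D1:**
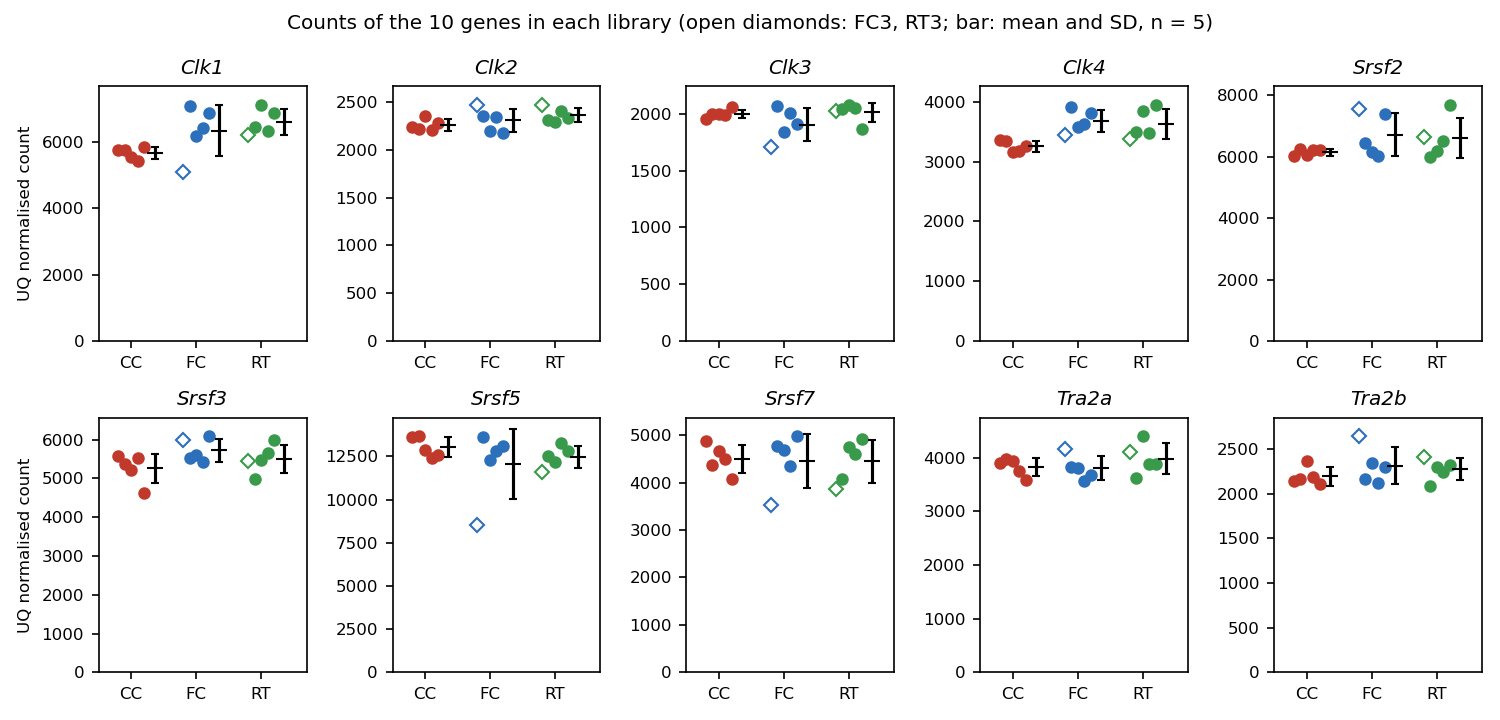
UQ-normalised read count (vertical axis, from 0) of each of the 10 genes in every library of CC, FC and RT, with a bar for mean and SD (n = 5) and open diamonds for FC3 and RT3. Clk4 was above the CC range in all FC and RT libraries, Clk1 in all RT libraries and in FC apart from FC3 at 5108 counts, while the groups overlapped for each of the other 8 genes.

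The first question was whether the RNA of these genes differed between FC, 30 min after conditioning, and CC. FC mice had the chamber and the shock and CC mice had neither. Effects of the chamber, of the shock and of learning to associate them therefore cannot be told apart. Clk1 and Clk4 rose and none of the 10 fell (2 of 10 called, against 2.24% of the 18008 genes tested in either direction, 1.32% upward and 0.922% downward). As the 10 were chosen with earlier results known, the share called among them is not a test of the set. Both rises were small, near 1.15-fold, and both were called in a model that contains 5 factors of unwanted variation (RUVs). Without these factors, UQ normalization alone called 0 of the 10 in edgeR (0.189% of all genes), and 0 of the 10 had an unadjusted p under 0.05. The quasi-likelihood test of edgeR with the factors called the same 2 genes (0.544% of all genes). An unadjusted p under 0.05 was reached by 4 of the 10 in the RUVs model, against 16.5% of all genes. The median log2 fold change of the 10 was 0.033, against -0.014 over all genes tested.

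Clk1, whose kinase sets the phosphorylation of SR proteins and is itself governed by the splicing of its transcript, had UQ-normalised counts of 5771, 5758, 5540, 5422 and 5841 in CC3, CC5, CC6, CC7 and CC8. In FC3, FC5, FC6, FC7 and FC8 the counts of Clk1 were 5108, 7099, 6184, 6437 and 6867. Every FC library but FC3 was above the highest CC library, and FC3 was below the lowest. The means were 5666 ± 177 in CC and 6339 ± 775 in FC (SD, n = 5). In the RUVs model, Clk1 rose by a log2 fold change of 0.20 (SE 0.043, 95% interval 0.12 to 0.29, edgeR FDR 2.99e-04), or 1.15-fold. UQ alone gave 0.16 (SE 0.125, edgeR FDR 0.966). Without FC3 and RT3, UQ alone gave 0.23 with an edgeR FDR of 0.00794, past the threshold of 0.01.

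Clk4 encodes the closest relative of Clk1 among the 4 kinases. Its UQ-normalised counts were 3360, 3346, 3154, 3172 and 3259 in the CC libraries, in the same order. They were 3452, 3920, 3587, 3626 and 3808 in the FC libraries. All 5 FC libraries were above all 5 CC libraries, FC3 included. Clk4 was the only member with no overlap between FC and CC in UQ counts, which held upward for 0.516% of all genes and downward for 0.344%. The means were 3258 ± 95 and 3679 ± 185 (SD, n = 5). In the RUVs model Clk4 rose by 0.19 (SE 0.037, 95% interval 0.12 to 0.26, edgeR FDR 6.42e-05), or 1.14-fold. UQ alone gave 0.17 (edgeR FDR 0.966), and without FC3 and RT3 it gave 0.20 with an edgeR FDR of 0.0368, short of the threshold.

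Clk2 and Clk3, the other kinases of the family, gave no call. Clk2, which is also known as an insulin-responsive kinase of liver, had 2205 to 2350 counts in CC and 2179 to 2469 in FC. Its log2 fold change was 0.01 (95% interval -0.06 to 0.08). Clk3 had 1959 to 2058 counts in CC and 1706 to 2068 in FC, with a log2 fold change of -0.04 (95% interval -0.12 to 0.03). A rise of the size seen for Clk1 or Clk4 lay outside both intervals.

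The FC5 library had the highest Clk1 count of its group, the highest Clk4 count (3920) and the highest choroid plexus sum. Without FC5 the log2 fold change of Clk1 was 0.17 with an edgeR FDR of 0.0190, which did not pass, and Clk4 still passed with 0.16 (edgeR FDR 0.00453). The part of choroid plexus RNA in either rise was not tested.

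**Figure D2:**
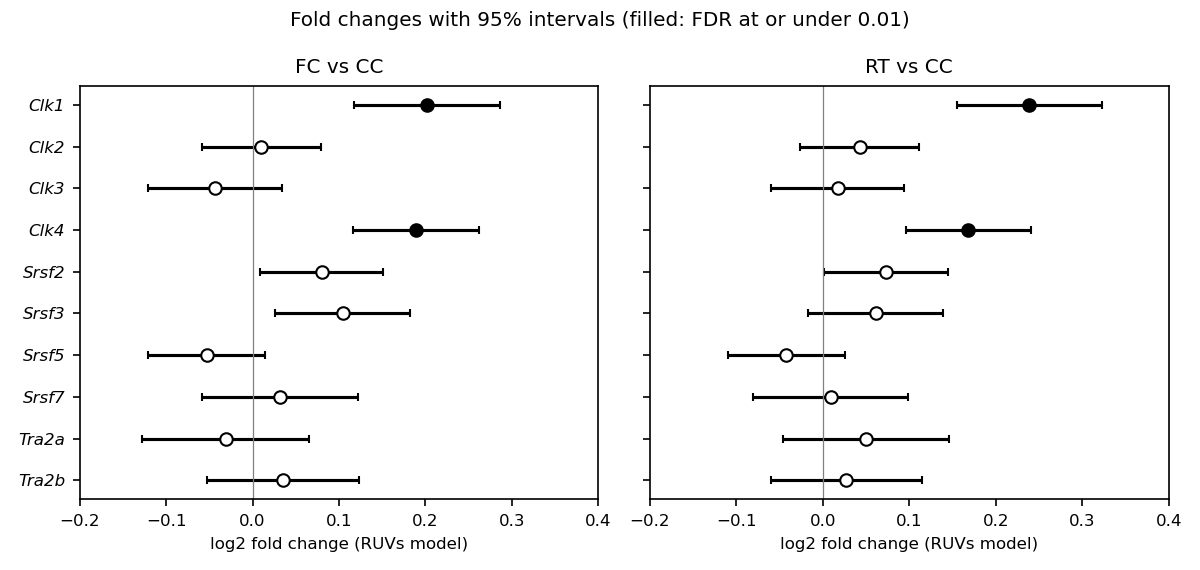
Log2 fold change in the RUVs model (horizontal axis) of the 10 genes for FC against CC and RT against CC, with 95% intervals as bars and filled points where the edgeR FDR was at or under 0.01. In both panels only Clk1 and Clk4 are filled, and the intervals of Clk2, Clk3, Srsf5, Srsf7, Tra2a and Tra2b span 0.

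Among the SR protein genes, none of 4 passed the threshold in FC. Srsf2 encodes SC35, an SR protein that binds exonic enhancers. It had 6013 to 6254 counts in CC and 7552, 6461, 6167, 6029 and 7408 in FC3, FC5, FC6, FC7 and FC8, so that 3 FC libraries stood above the CC range and 2 lay within it. The log2 fold change was 0.08 (95% interval 0.01 to 0.15, edgeR FDR 0.229). Srsf2 is also 1 of the study's negative control genes, from which the RUVs factors come, and with factors computed without it the calls were the same.

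Srsf3, the smallest SR protein and an adaptor for mRNA export, had 4632 to 5570 counts in CC and 5410 to 6082 in FC. Its log2 fold change of 0.10 (95% interval 0.03 to 0.18, edgeR FDR 0.121) was the next after Clk1 and Clk4 among the 10. Srsf5, a delayed early gene of growing liver cells, had 12417 to 13662 counts in CC and 12309 to 13610 in 4 FC libraries, but 8515 in FC3. In the RUVs model the difference was -0.05 (95% interval -0.12 to 0.01, edgeR FDR 0.463). Srsf7, an SR protein with a zinc knuckle, had 4078 to 4872 counts in CC and 3521 to 4972 in FC, with a log2 fold change of 0.03 (95% interval -0.06 to 0.12).

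The Tra2 proteins, mammalian homologues of the fly sex-determination factor Tra2 and binders of GAA-rich enhancers, gave no call either. Tra2a had 3577 to 3979 counts in CC and 3566 to 4168 in FC, and a log2 fold change of -0.03 (95% interval -0.13 to 0.07, edgeR FDR 0.828). Tra2b had 2112 to 2371 counts in CC and 2119 to 2642 in FC, and a log2 fold change of 0.04 (95% interval -0.05 to 0.12). For both genes the highest FC count was that of FC3. Clk4 and Tra2a, whose promoters both hold the cAMP response element, had intervals that did not overlap in FC but overlapped in RT (0.10 to 0.24 and -0.05 to 0.15).

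The second comparison, RT against CC, addressed tissue taken after the retrieval test, a day after training. It shares the CC libraries with the first. RT mice had both the conditioning and the test, and CC mice had neither. Retrieval, a lasting effect of training and exposure to the chamber therefore cannot be told apart. Clk1 and Clk4 were again the members called, and none fell (2 of 10, against 1.01% of all genes in either direction, 0.866% upward and 0.144% downward). The choice of the 10 with earlier results known bears on this share as well. UQ alone called 0 of the 10 in edgeR (0.106% of all genes), with 0 at an unadjusted p under 0.05. The quasi-likelihood test called 1 of them, Clk1 (0.367% of all genes). In the RUVs model 3 of the 10 had an unadjusted p under 0.05, against 11.0% of all genes. The median log2 fold change of the 10 was 0.046, against -0.0012 over all genes.

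Clk1 had UQ-normalised counts of 6203, 6446, 7120, 6322 and 6875 in RT3, RT5, RT6, RT7 and RT8. All 5 were above the CC maximum of 5841, with a mean of 6593 ± 389 (SD, n = 5). The log2 fold change was 0.24 (SE 0.043, 95% interval 0.16 to 0.32, edgeR FDR 7.35e-06), or 1.18-fold, and the quasi-likelihood test of edgeR gave an FDR of 0.00236. UQ alone gave 0.22 (edgeR FDR 1.00), and without FC3 and RT3 it gave 0.24 (edgeR FDR 0.00628).

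Clk4 had 3388, 3493, 3854, 3481 and 3951 counts in the same RT libraries, all above the CC maximum of 3360, though RT3 by little. Clk1 and Clk4 were the members whose RT counts all lay above CC (2 of 10, against 0.877% of all genes), and 0 lay all below (0.416% of all genes). The mean was 3633 ± 251 (SD, n = 5), and the log2 fold change was 0.17 (SE 0.037, 95% interval 0.10 to 0.24, edgeR FDR 9.23e-04), or 1.12-fold. This call was the least firm of the 4: the quasi-likelihood test of edgeR gave an FDR of 0.0164, and UQ alone without FC3 and RT3 gave 0.118. It was also lost without CC6, without RT6 or without RT8, with an edgeR FDR of at most 0.0355. RT8 held the highest Clk4 count and the highest choroid plexus sum of its group. Of the 10 choroid plexus markers, 1 was called higher in RT than in CC and 7 had an unadjusted p under 0.05, with a median log2 fold change of 0.85, and their part in the result was not tested.

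The other 8 members had log2 fold changes from -0.04 (Srsf5) to 0.07 (Srsf2) in RT, and edgeR FDRs of 0.436 or more. Clk2, with 2289 to 2470 counts in RT, had 0.04 (95% interval -0.03 to 0.11). Clk3, with 1867 to 2080, had 0.02 (95% interval -0.06 to 0.09). Srsf3 had 0.06 (95% interval -0.02 to 0.14) and Tra2a 0.05 (95% interval -0.05 to 0.15). Srsf5 had 11596 to 13254 counts in RT and a value of -0.04 (95% interval -0.11 to 0.03). Srsf7, with 3870 to 4921, had 0.01 (95% interval -0.08 to 0.10), and Tra2b, with 2083 to 2416, had 0.03 (95% interval -0.06 to 0.11). For Srsf2 the interval was 0.00 to 0.14, and its RT counts ran from 6000 to 7689. A value of 0.24, that of Clk1, lay outside the intervals of all 8.

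**Figure D3:**
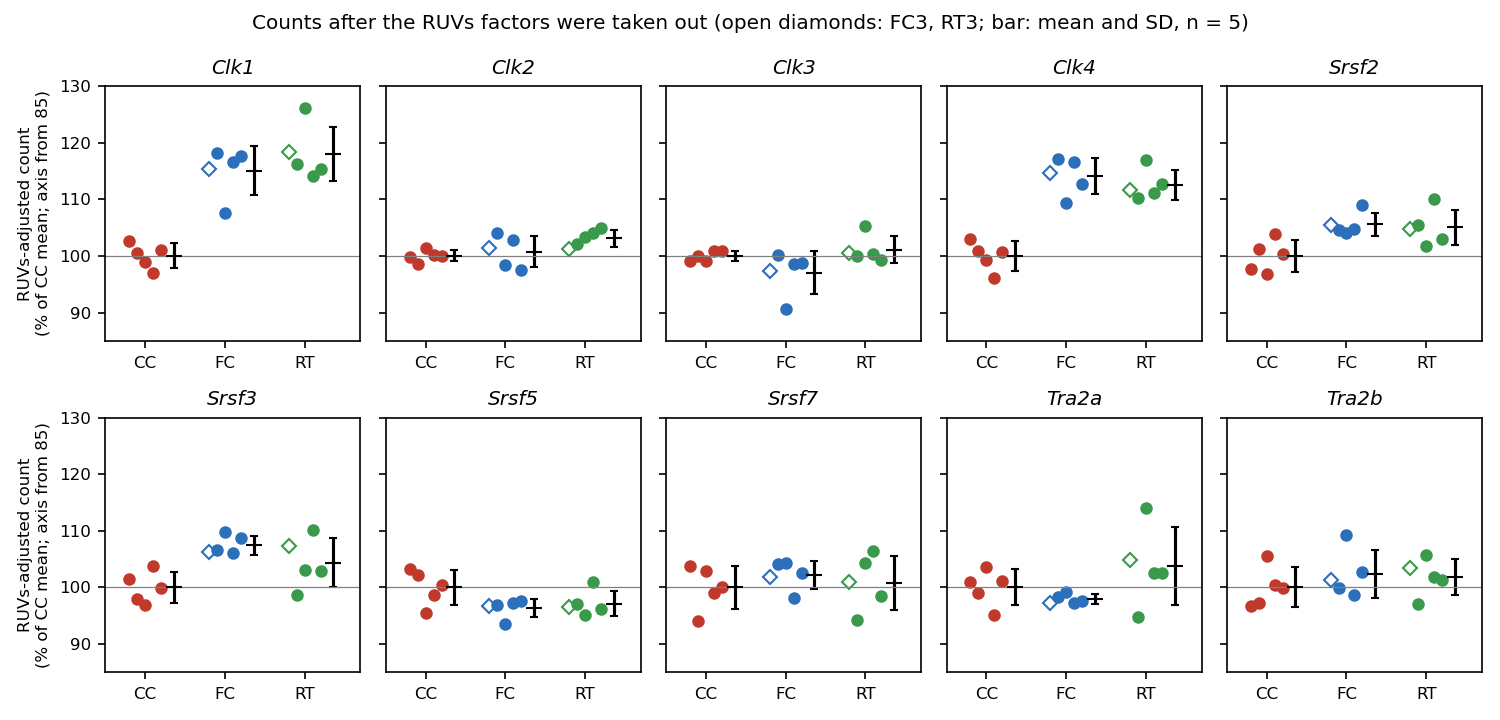
Counts of the 10 genes after the 5 RUVs factors were taken out, as percent of the CC mean (vertical axis, from 85), for every library with mean and SD (n = 5) and open diamonds for FC3 and RT3. Clk1 lay at 96.9 to 102.7 for CC, 107.6 to 118.2 for FC and 114.2 to 126.2 for RT, and Clk4 at 96.0 to 103.0, 109.4 to 117.1 and 110.3 to 116.9. The factors are estimated from differences among libraries of a group, so the narrow spread within groups is in part made by the method.

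The plot of counts with the factors removed shows how FC3 changes place. Clk1 in FC3 was at 90.1% of the CC mean after UQ and at 115% with the factors removed. Srsf5 in FC3 was at 65.3% and at 96.7%. Without FC3 and RT3, the RUVs model gave Clk1 0.21 in FC (edgeR FDR 2.80e-04) and 0.23 in RT (edgeR FDR 5.16e-05). Clk4 had 0.18 in FC (edgeR FDR 4.43e-04) and 0.17 in RT (edgeR FDR 0.00134) without these libraries.

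FC was compared with RT directly, to ask whether tissue taken after conditioning and tissue taken after the retrieval test differed. None of the 10 genes was called in edgeR (0 of 10, against 0.122% of all genes, 0.0777% upward and 0.0444% downward), the quasi-likelihood test and UQ alone called 0 of 10 as well, and 0 had an unadjusted p under 0.05 in any of the 3 (10.7% of all genes in the RUVs model). In UQ counts no member had FC libraries all above or all below the RT libraries (0.0444% and 0.167% of all genes). For Clk1 the log2 difference, FC less RT, was -0.04 (95% interval -0.12 to 0.05). For Clk4 it was 0.02 (95% interval -0.05 to 0.09). The others lay between -0.06 (Clk3) and 0.04 (Srsf3), except Tra2a, which was the largest of the 10 in size at -0.08 (95% interval -0.18 to 0.01, edgeR FDR 0.578), with FC counts of 3566 to 4168 and RT counts of 3624 to 4398.

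Ratios of 2 kinase genes within a library need no normalization, and were added after the values above had been seen, so they are given with no test. The ratio of Clk1 to Clk3 reads lay between 2.72 and 2.95 in CC, between 2.99 and 3.59 in FC and between 3.06 and 3.68 in RT. All trained libraries were above all CC libraries, FC3 and RT3 included, as was true of 1.03% of genes set against Clk3 in FC and 0.833% in RT. In FC3 the UQ-normalised counts of Clk1 (5108) and of Clk3 (1706, against 1959 to 2058 in CC) were both below their CC ranges. The ratio of FC3 therefore does not show a higher Clk1. The ratio of Clk4 to Clk3 lay between 1.58 and 1.72 in CC, between 1.81 and 2.02 in FC and between 1.67 and 2.12 in RT, with FC apart from CC and RT overlapping it. With Clk2 as the reference the groups overlapped: Clk1 to Clk2 had CC values of 2.36 to 2.60, FC values of 2.07 to 3.15 and RT values of 2.51 to 3.11. For Clk1 to Clk4 the CC values were 1.71 to 1.79, the FC values 1.48 to 1.81, with FC3 lowest, and the RT values 1.74 to 1.85. The uncertainty of Clk3 from its overlap with Edc3 bears on every ratio to Clk3.

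**Figure D4:**
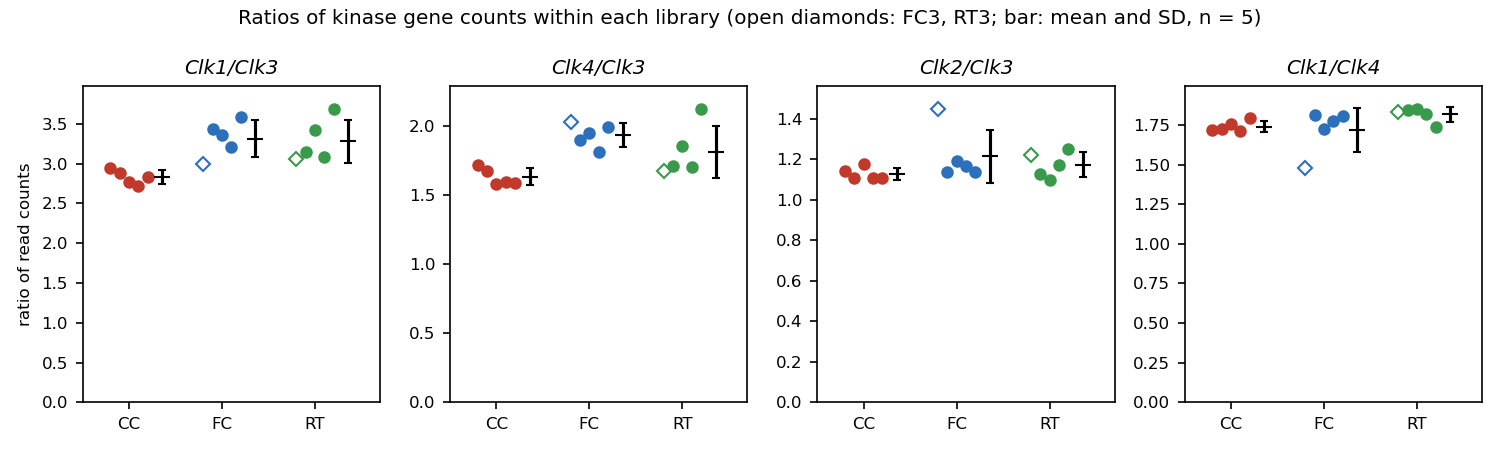
Ratios of raw read counts (vertical axis, from 0) between kinase genes within each library of CC, FC and RT, with mean and SD (n = 5) and open diamonds for FC3 and RT3. Clk1/Clk3 is above the CC range of 2.72 to 2.95 in all FC and RT libraries, and Clk1/Clk4 overlaps between the groups, with a mean of 1.74 in CC and 1.82 in RT and the lowest value, 1.48, in FC3.

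Likeness to Clk1 and Clk4 was measured over all tested genes as the root-mean-square difference of log2 UQ counts, each gene centred on its own mean. Over the 15 libraries, the 3 genes nearest to Clk1 included Rrnad1 (0.0750) and Clk4 (0.0758). Those nearest to Clk4 were Ccnl2, a cyclin L gene of the splicing machinery (0.0636), Fbxl14 (0.0719) and Gnpnat1 (0.0740), with Clk1 in place 6. Without FC3 and RT3, a set of 13 libraries chosen after the data were seen, Clk1 and Clk4 were each the nearest gene to the other (0.0384). The next to Clk1 were then Cep76 (0.0501) and Pvr (0.0605), and the next to Clk4 were Dcp1a (0.0523) and BC024479 (0.0525). All these values come from shared libraries and depths, and are a description. Among the other members, the nearest to Clk4 over 15 libraries was Srsf3, in place 86, and the nearest to Clk1 was Clk3, in place 425.

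Beyond the 10 genes, 120 further genes of the pathway were followed, of which 118 were tested. In FC 1 rose and 1 fell (1.69%), in RT 1 fell (0.847%), and none was called between FC and RT with all 15 libraries, against the shares of all genes given above. Of 7 other SR protein genes, none was called, and the smallest p in any comparison was that of Srsf9, with a log2 fold change of 0.09 in FC (edgeR FDR 0.273). Of 19 tested kinases, phosphatases and import factors of SR proteins, Hipk2, a nuclear kinase, rose in FC by 0.45 (edgeR FDR 8.64e-07). Hipk2 had 466 to 1364 counts in CC and 358 to 1578 in FC, so its groups overlapped widely, and UQ alone gave 0.20 (edgeR FDR 0.966). Without FC3 and RT3, the RUVs model gave Hipk2 0.39 (edgeR FDR 2.06e-07). Of 31 SR-related proteins, Srrm4, which drives neural microexons, fell by 0.15 in FC (edgeR FDR 0.00405). Luc7l2, a partner of the U1 particle, fell by 0.12 in RT (edgeR FDR 0.00783). Neither passed in the quasi-likelihood test of edgeR (FDR 0.0268 and 0.0526). Srrm4 had 946 counts in FC3 against 2645 to 2800 in the other FC libraries, and Luc7l2 had 4714 in RT3 against 7395 to 8334 in the other RT libraries. UQ alone gave an edgeR FDR of 0.966 for Srrm4 in FC and 1.00 for Luc7l2 in RT. Without FC3 and RT3 the RUVs model called neither (edgeR FDR 0.151 for Srrm4 in FC and 0.0667 for Luc7l2 in RT). Between FC and RT it then called Luc7l2 (0.15, edgeR FDR 0.00686) and Hnrnpr, an hnRNP gene (0.17, edgeR FDR 0.00492), both higher in FC. In edgeR, none of 29 hnRNP proteins, 15 nonsense-mediated decay and exon junction factors or 17 U1 and U2 proteins was called. Their smallest p values belonged to Hnrnpr (-0.11 in RT, edgeR FDR 0.167), 1500002O20Rik (Smg9, 0.09 in RT, edgeR FDR 0.342) and U2af2 (-0.08 in FC, edgeR FDR 0.0485). For the 4 lists with no call, UQ alone and the quasi-likelihood test of edgeR gave 0 calls as well, with all 15 libraries. Unadjusted p values under 0.05 were found in FC for 2 SR, 4 hnRNP, 0 decay and 1 U1 and U2 genes, against 16.5% of all genes. In RT they were found for 0, 3, 3 and 0 genes (11.0% of all genes), and between FC and RT for 0, 7, 0 and 0 (10.7%). Of the 19 kinases, phosphatases and import factors, 7 had such a p in FC, 3 in RT and 4 between FC and RT. Of the 31 SR-related genes, 3 had one in FC, 3 in RT and 1 between FC and RT. The median log2 fold changes of the 118 genes were -0.0064 in FC and -0.013 in RT, against -0.014 and -0.0012 over all genes.

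Of the marker lists, none but choroid plexus had a member that rose in any comparison, and endothelium and meninges each had 1 member that fell in FC. In edgeR, 0 neuronal, astrocyte, oligodendrocyte, microglial and blood markers were called in any comparison, with or without the factors and by the quasi-likelihood test. In the RUVs model 0 to 3 of each of these lists had an unadjusted p under 0.05. Neuronal markers had 3 of 8 in FC and 2 of 8 in RT, and endothelial markers had 4 of 8 in each. The shares of all genes were 16.5% in FC and 11.0% in RT. The median log2 fold change of the 8 neuronal markers was -0.02 in FC and -0.06 in RT, and that of the 8 oligodendrocyte markers was -0.01 and 0.02.

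The 4 calls were followed through 16 other models of the same libraries or most of them. The log2 fold changes ranged from 0.16 to 0.23 for Clk1 and from 0.17 to 0.20 for Clk4 in FC, and from 0.22 to 0.25 for Clk1 and from 0.16 to 0.18 for Clk4 in RT. Sizes moved little, and the calls were lost mainly where no factor or 1 factor of unwanted variation was used.

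**Figure D5:**
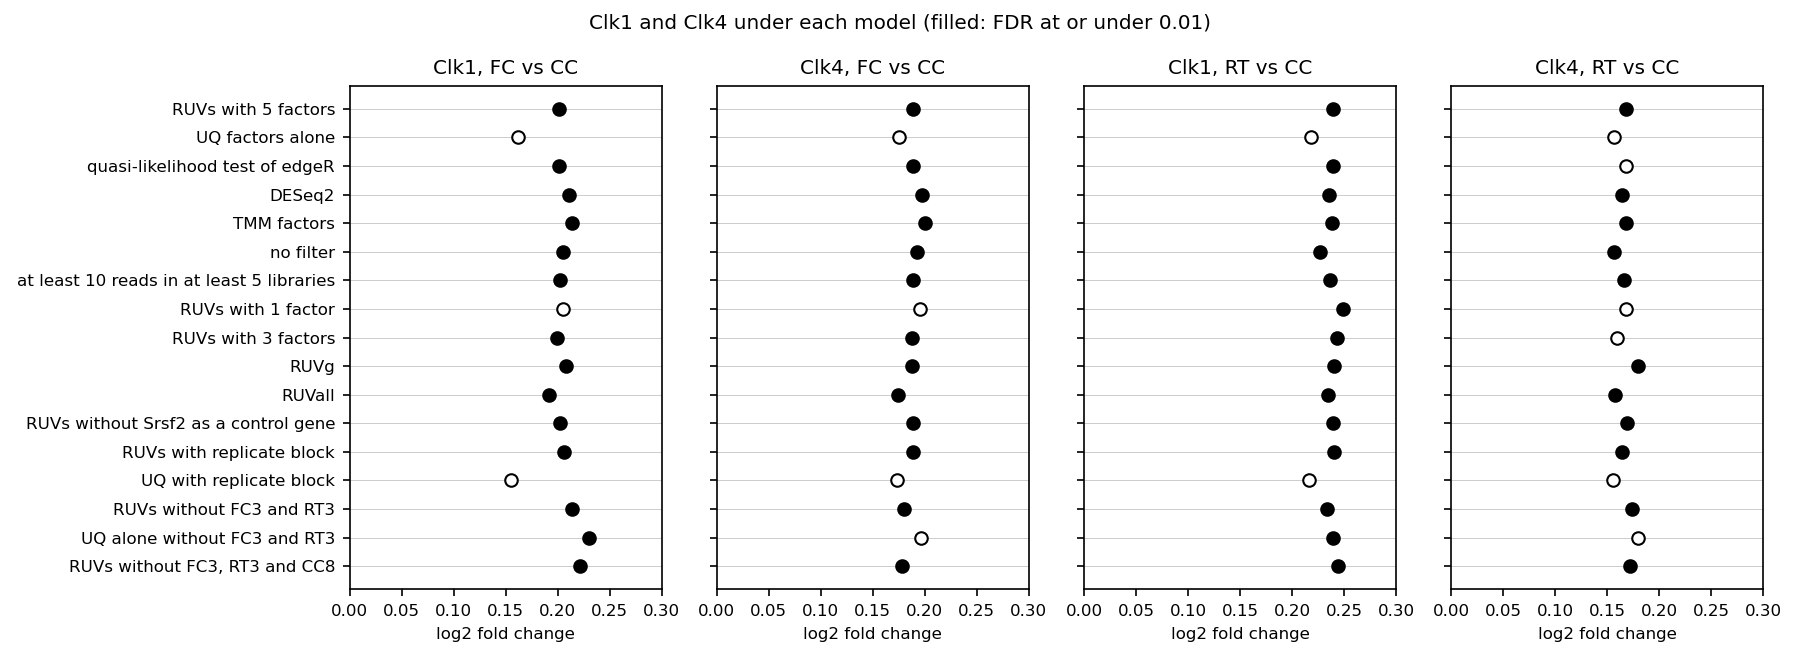
Log2 fold change (horizontal axis) of Clk1 and Clk4 in FC and RT against CC under the RUVs model with 5 factors and 16 alternatives, filled where the FDR was at or under 0.01. All points lie to the right of 0, between 0.16 and 0.25, and the models on UQ factors with all 15 libraries are open for both genes.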

How the data were processed

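Per the methods and the submitters' processing notes, the deposited read counts per Ensembl gene were made by the authors with HTSeq 0.6.1 from pairs that GSNAP placed uniquely and concordantly on mm9. The counts are raw, without normalization, so depth differs between libraries, and read counts of both strands are summed. Groups were taken from the labels, and no column was left without a sample. Differential expression was computed in R 4.3.3 with edgeR 4.0.16: 18008 genes passed a filter of over 10 reads in over 5 libraries and entered 1 negative binomial model of all 15 libraries, with UQ factors, 5 RUVs factors from the study's negative control genes and a likelihood ratio test (FDR threshold 0.01, adjusted over all tested genes). This is the study's own design. RUVs was written anew, and its factors were checked against those in the study's code. SE is the log2 fold change divided by the root of the likelihood ratio, and 95% intervals are 1.96 SE to either side. UQ counts were scaled by the upper quartile of the tested genes. For likeness, 1 was added before the log.

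Alternatives were UQ alone, quasi-likelihood testing in edgeR, the RUVs factors in DESeq2 1.42.0, a change of filter, TMM in place of UQ factors, fewer RUVs factors, RUVg, every tested gene as a control (RUVall), a replicate block, and omission of libraries. Of these models, the likelihood ratio fits with RUVs factors and with UQ alone were run on simulated counts for FC against CC. Those counts were built with the RUVs factors fitted to these libraries, so the run cannot judge the factors. The other alternatives were not run on simulated counts. p-values measure the spread between these libraries that a model leaves, which in the RUVs model is the spread remaining after the 5 factors. For Clk1 in FC the SE was 0.043 with the factors and 0.125 with UQ alone. The factors come from differences among libraries of a group. The narrower SEs and intervals and the smaller FDRs of the RUVs model are therefore in part made by the method. Libraries of FC and RT with the same number deviated together from their group means (correlation across the 18008 genes 0.254 to 0.871 for the 5 pairs, against a median of 0.142 and at most 0.512 for other pairs), whereas CC shared no such tie (-0.313 to 0.239 with FC, -0.326 to 0.0928 with RT). These correlations include FC3 and RT3, which stood apart from the rest and share a number, and no values without them are given. The number was fitted as a block as well. The 10 genes and the lists were chosen with earlier results of these data known. All 10 genes are named. Of each further list, up to 3 called genes with the smallest p are named, or the 1 gene of smallest p where none was called, along with the 3 genes most like each called member, 1 of which is not reported here. Positions, transcripts and exonic lengths come from the annotation of the build and Ensembl release that the authors used, and promoter windows from RefSeq. Isoforms were not analysed here.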

Additional observations from a re-analysis of the deposited data

Results flagged for a closer look

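In 30 sets of 5 UQ-normalised counts, 1 for each gene and group, 3 had a single library far from the other 4 by Dixon's criterion (gap over range above 0.71), and chance alone gives such a library in about 1 of 20 sets. Srsf5 had 8515 counts in FC3, against 12309 to 13610 in the other FC libraries. Clk3 had 1867 counts in RT8, against 2024 to 2080 in the other RT libraries, and RT8 has the highest ratios of Clk1 and of Clk4 to Clk3 in its group. Tra2b had 2371 counts in CC6, against 2112 to 2184 in the other CC libraries.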

How the results depend on the processing

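Under every alternative run, Clk1 and Clk4 kept a positive log2 fold change in FC and in RT, and none of the other 8 genes was called in any comparison. Of the 10 genes, 2 were called in FC and 2 in RT with 5 RUVs factors. In FC, 0 were called with UQ alone, with 1 RUVs factor and with UQ and the block, and 1 with UQ alone without FC3 and RT3. In RT, 0 were called with UQ alone and with UQ and the block, and 1 with the quasi-likelihood test, with 1 factor, with 3 factors and with UQ alone without FC3 and RT3. With 1 factor the edgeR FDR of Clk1 in FC was 0.0117, that of Clk4 was 0.0136 in FC and 0.0774 in RT, and with 3 factors that of Clk4 in RT was 0.0120. Leaving out each library in turn gave 1 to 2 called genes in FC and in RT with RUVs and 0 with UQ alone, and 0 between FC and RT. The calls lost were Clk1 in FC without FC5, and Clk4 in RT without CC6, RT6 or RT8. With the replicate block the RUVs model called the same 2 genes in FC and in RT (edgeR FDR from 3.14e-04 to 0.00598) and 0 between FC and RT, so pairing by number changed no call there. Srsf3 in FC then came just short of the threshold, with a log2 fold change of 0.12 and an edgeR FDR of 0.01005, against 0.121 without the block. Over all genes, the number called was 403 in FC and 182 in RT with RUVs, 34 and 19 with UQ alone, and 241 to 624 and 142 to 266 when 1 library was left out of the RUVs model. Between FC and RT it was 22, against 0 with UQ alone and 3 to 93 with 1 library left out. UQ alone without FC3 and RT3, and RUVs without FC3, RT3 and CC8, were chosen after seeing the data. DESeq2, TMM factors, both filters, RUVg, RUVall, factors without Srsf2 and RUVs without FC3 and RT3 left the number of the 10 genes called as it was. The cause of the differences was not tested. Each of the 10 genes had at least 1317 reads in every library, counts of a gene do not separate its isoforms, and 1 time point per session was sampled.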
